A study of Mus musculus with 30 samples.

Results

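The negative feedback genes of the RAS-RAF-MEK-ERK pathway were followed in RNA-seq read counts of mouse thyroid. They are the Sprouty genes Spry1, Spry2 and Spry4, the Spred genes Spred1, Spred2 and Spred3, and the ERK phosphatase genes Dusp4, Dusp5 and Dusp6. They were chosen by name, as 9 of the 33924 genes of the count table, and all 9 were among the 19016 genes that passed the filter on low counts. In this pathway an activated receptor or a mutant kinase drives RAF, RAF activates MEK, and MEK activates the kinase ERK, which turns on target genes that include its own inhibitors. Sprouty proteins block the signal between the receptor and RAF. Spred proteins bind neurofibromin and bring it to the membrane, where it switches RAS off. Dual-specificity phosphatases strip the activating phosphates from ERK, in the cytoplasm in the case of Dusp6 and in the nucleus in the case of Dusp4 and Dusp5. The mRNAs of these genes are widely read as a record of ERK output, and mutant BRAF, which signals through MEK and ERK, is a common driver of papillary thyroid cancer.

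The series was set up to ask how loss of the SWI/SNF chromatin remodelling complex bears on thyroid tumours with mutant Braf and on their response to a drug meant to restore differentiation. Mice carried Braf(V600E), an activating mutation, alone (Braf) or together with a knockout (KO) of Arid1a, Arid2 or Smarcb1, each of which encodes a subunit of that complex. Each of these 4 genotypes was given CKI, the labels' short name of the MEK inhibitor CH5126766, or vehicle, for 8 days, and thyroids were taken about 2 h after dosing ended. The groups were Braf CKI and Braf vehicle, Braf Arid1a KO CKI and Braf Arid1a KO vehicle, Braf Arid2 KO CKI and Braf Arid2 KO vehicle, Braf Smarcb1 KO CKI and Braf Smarcb1 KO vehicle, and untreated Arid1a KO and wild-type mice without mutant Braf. Each held 3 libraries, except the Braf Arid2 KO CKI and vehicle groups with 2 each, for 28 libraries in 10 groups. All dosed groups carried Braf(V600E), and neither a dosed wild-type group nor an undosed Braf group was analysed here, so the vehicle and the mutation cannot be told apart against wild type. The labels name no strain, age, promoter or Cre. They describe sorting of YFP+ cells from dissociated thyroids, and for wild-type, Arid2 and Smarcb1 mice also the freezing of whole thyroids. Both descriptions stand with every sample, so the preparation of a given library is uncertain, and preparation and genotype cannot be told apart in the comparisons between genotypes. Whether the libraries of a group stem from different mice is not given, so the spread that p-values measure may be technical.

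Libraries held 23879271 to 34400066 counts. Smarcb1 stood at 18.1, 47.4 and 11.9 CPM in Braf Smarcb1 KO CKI and at 2.28, 10.03 and 17.9 CPM in Braf Smarcb1 KO vehicle libraries, below all libraries of Braf CKI (187 to 217 CPM) and Braf vehicle (57.0 to 131 CPM). Low Smarcb1 was not particular to these libraries: untreated Arid1a KO libraries had 22.3, 62.5 and 15.1 CPM, below wild-type libraries (74.8 to 152 CPM). Counts over the whole gene do not check the Arid1a and Arid2 labels. All 8 follicular cell markers were detected in all 28 libraries, and their summed level was 8956 to 22070 CPM in Braf CKI, 408 to 1165 CPM in Braf vehicle and 61770 to 159900 CPM in wild-type libraries. Leukocyte, endothelial, fibroblast and parathyroid markers were also present, and those called in a comparison are given beside its results. In bulk samples like these, fewer cells of a type and less RNA per cell cannot be told apart.

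The start regions of 4 of the genes are shown because these 4 carried different patterns below: Spred1 was lower under CKI in Braf, Spred2 differed in its drug response, and Dusp5 and Dusp6 separated the Smarcb1 knockout under CKI. They are RefSeq promoter windows on the build GRCm38.p6, from 250 bases before to 50 bases after the annotated start, read 5′ to 3′ on the strand of the gene. Windows were at hand for 7 of the 9 genes, not for Spry4 and Dusp4. The Spred1 window is chr2:117120821-117121120, the Spred2 window chr11:19924192-19924491, the Dusp5 window chr19:53528895-53529194 and the Dusp6 window chr10:99262981-99263280, all on the plus strand. Capitals mark a match, on either strand, to GGAAGT, a longer form of the GGAA core bound by ETS factors, or to TGACG, the core of the cyclic AMP response element.
Spred1: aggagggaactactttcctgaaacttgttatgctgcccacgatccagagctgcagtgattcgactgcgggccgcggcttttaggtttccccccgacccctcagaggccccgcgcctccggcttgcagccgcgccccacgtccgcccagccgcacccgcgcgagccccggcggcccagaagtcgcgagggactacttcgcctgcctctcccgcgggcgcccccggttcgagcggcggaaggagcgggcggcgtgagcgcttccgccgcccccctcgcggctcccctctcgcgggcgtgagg
Spred2: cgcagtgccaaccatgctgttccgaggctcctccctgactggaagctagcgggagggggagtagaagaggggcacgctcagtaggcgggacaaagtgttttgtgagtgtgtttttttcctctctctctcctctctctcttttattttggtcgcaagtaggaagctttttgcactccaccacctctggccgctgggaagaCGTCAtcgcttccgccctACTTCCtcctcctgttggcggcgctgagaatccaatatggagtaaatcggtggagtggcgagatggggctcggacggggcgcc
Dusp5: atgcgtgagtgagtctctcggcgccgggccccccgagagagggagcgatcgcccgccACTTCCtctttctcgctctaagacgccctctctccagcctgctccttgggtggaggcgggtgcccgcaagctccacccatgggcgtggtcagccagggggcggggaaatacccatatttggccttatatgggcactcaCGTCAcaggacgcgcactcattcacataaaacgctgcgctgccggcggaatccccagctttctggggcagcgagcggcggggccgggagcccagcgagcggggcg
Dusp6: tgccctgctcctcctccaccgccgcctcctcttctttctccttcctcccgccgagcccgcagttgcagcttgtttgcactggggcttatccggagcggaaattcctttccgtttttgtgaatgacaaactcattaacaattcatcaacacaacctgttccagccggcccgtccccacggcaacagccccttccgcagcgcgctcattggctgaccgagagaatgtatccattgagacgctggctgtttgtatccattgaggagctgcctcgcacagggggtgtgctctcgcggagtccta
Spred2 and Dusp5 hold both motifs, all as the reverse complement. In Spred2 they begin 51 bases (TGACG) and 33 bases (GGAAGT) before the start. In Dusp5 they begin 55 bases (TGACG) and 193 bases (GGAAGT) before the start. The windows of Spred1, Spred3, Spry1, Spry2 and Dusp6 hold neither motif. The shorter GGAA was not counted, and it stands in the Spred1 and Dusp6 windows shown. Of 32851 RefSeq windows of the same length, 23.8% hold GGAAGT and 20.8% hold TGACG, so a match is frequent and no match says only that these letters are not in the window. The AP-1 motif TGANTCA, in 7.81% of all windows, and the full response element TGACGTCA, in 1.79%, were in none of the 7. The motifs do not overlap each other in these windows.

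Levels are given as CPM, counts scaled to a common library total with TMM factors, and each group's as mean ± SD. The tests are edgeR's quasi-likelihood test with Benjamini-Hochberg adjustment over 19016 genes, and a gene is said to rise or fall where its adjusted p was under 0.05. Log2 fold changes are given with their standard error (SE). Whether the libraries of 2 groups overlap is a description only. Groups of 2 or 3 libraries can lie apart without any difference, and the share of all genes that do was not counted. Between genes, levels were compared per kilobase of exon. On that scale Dusp6 was the highest of the 9 in every group, with group means of 16.8 to 301 CPM per kb, and Spred3 the lowest in every group, with 0.0619 to 1.52 CPM per kb.

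Among the Sprouty genes, Spry1 was highest in Braf Arid1a KO vehicle (69.3 ± 20.4 CPM, n = 3) and Braf Smarcb1 KO vehicle (62.2 ± 15.9 CPM, n = 3) and lowest in Braf vehicle (15.3 ± 5.92 CPM, n = 3). The 7 groups between them ran down in steps, and each group's libraries overlapped those of the next. Spry2 was highest in Braf Arid1a KO vehicle (12.0 ± 1.24 CPM) and lowest in wild type (3.72 ± 0.521 CPM), again with overlap between all neighbours. Spry4 stood at 174 ± 57.0 CPM in Braf Smarcb1 KO vehicle, where the lowest library (113 CPM) was above the highest library of any other group (48.1 CPM). The other 9 groups had Spry4 means of 11.5 to 38.6 CPM, and neighbours in that order overlapped.

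Spred1 fell into separate tiers under CKI and under vehicle. The CKI libraries of the 4 Braf genotypes had 29.1 to 46.6 CPM, and the vehicle libraries of the same genotypes 57.1 to 108 CPM. Untreated Arid1a KO libraries had 28.2 to 49.4 CPM, across the CKI range, and wild-type libraries 15.7 to 17.0 CPM, below all others. Spred2 was highest in Braf Smarcb1 KO vehicle (42.5 ± 21.4 CPM) and Braf Arid2 KO vehicle (37.9 ± 19.8 CPM, n = 2), which overlapped each other. Braf CKI came next with 23.9 ± 4.32 CPM and lay above Braf vehicle with 16.2 ± 5.56 CPM, and the other 6 groups had means of 10.2 to 13.5 CPM. Spred3 was scarce, with group means of 0.385 to 1.43 CPM in 7 groups, 3.03 ± 3.03 CPM in Braf Arid2 KO vehicle, 3.36 ± 1.12 CPM in Braf Smarcb1 KO CKI and 9.43 ± 2.30 CPM in Braf Smarcb1 KO vehicle. No other group's libraries reached the lowest library of Braf Smarcb1 KO vehicle (6.78 CPM).

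Dusp4 ranged most widely of the phosphatases. It was at 69.5 ± 23.7 CPM in Braf Arid2 KO vehicle, 29.8 ± 11.2 CPM in Braf CKI and 20.4 ± 10.2 CPM in Braf vehicle, and at 0.382 ± 0.106 CPM in untreated Arid1a KO and 0.847 ± 0.569 CPM in wild type. Both Braf Arid2 KO vehicle libraries lay above those of all other groups. Dusp5 was highest in Braf CKI (23.8 ± 2.18 CPM) and Braf vehicle (21.6 ± 1.62 CPM) and lowest in wild type (6.37 ± 2.47 CPM). Dusp6 was at 944 ± 259 CPM in Braf Arid1a KO vehicle, 672 ± 117 CPM in Braf Arid2 KO vehicle, 485 ± 239 CPM in Braf Arid1a KO CKI, 465 ± 47.4 CPM in Braf CKI, 384 ± 203 CPM in Braf vehicle and 381 ± 71.7 CPM in Braf Smarcb1 KO vehicle. Neighbours among these 6 groups overlapped. The lowest library among them had 228 CPM, and all lay above wild type (186 ± 54.9 CPM, highest library 227 CPM). Braf Arid2 KO CKI (170 ± 35.2 CPM) and Braf Smarcb1 KO CKI (151 ± 30.3 CPM) overlapped wild type, and untreated Arid1a KO was below all of them (52.7 ± 39.7 CPM, highest library 97.6 CPM).

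**Figure D1:**
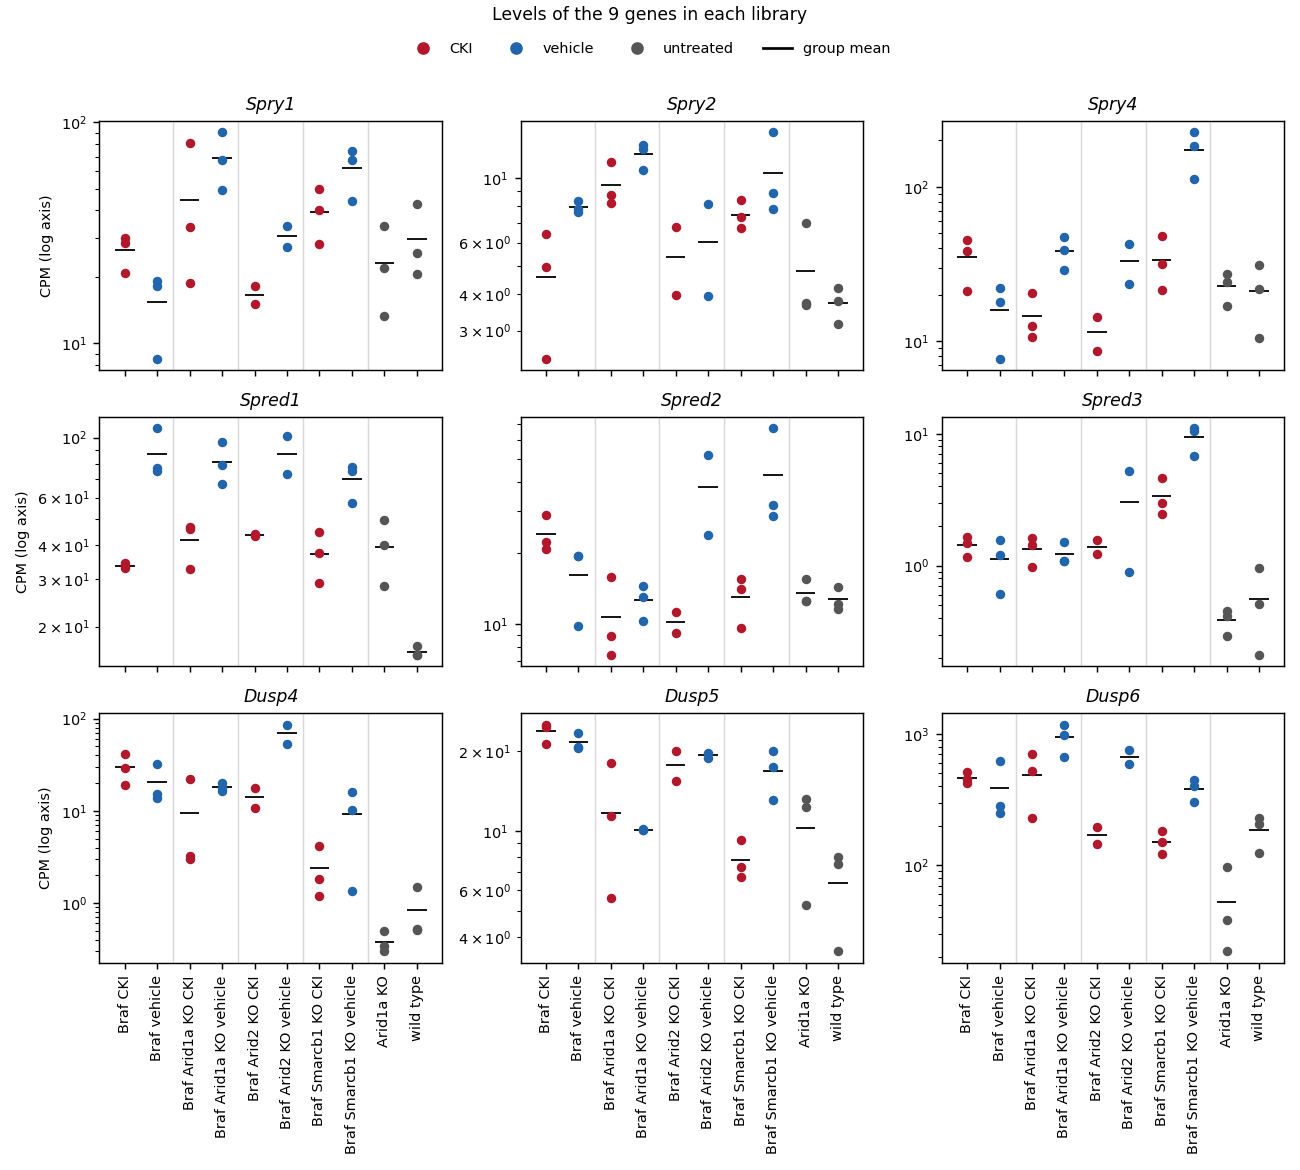
Level of each of the 9 genes in every library, in CPM on a log axis, by group. Points are libraries and bars are group means. Spry4 in Braf Smarcb1 KO vehicle lies between 113 and 226 CPM, above all other groups, and Spred1 falls into a CKI tier of 29.1 to 46.6 CPM and a vehicle tier of 57.1 to 108 CPM in the 4 Braf genotypes.

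The first comparison asked how MEK inhibition moved the feedback genes in Braf thyroids. Spred1 fell, and none of the other 8 genes passed the test in either direction. Spred1, a neurofibromin partner, had 33.6, 33.0 and 34.3 CPM in Braf CKI libraries, against 75.4, 108 and 76.9 CPM in Braf vehicle libraries. The groups did not overlap, and the difference was 2.58-fold lower under CKI (log2 fold change -1.37 ± 0.24, adjusted p = 0.0019). Of the 9 genes 1 was called lower and 0 higher, where 5.01% of all genes were called lower and 7.96% higher. At an unadjusted p under 0.05 there were 3 of the 9, beside 5461 of all 19016 genes. The median log2 fold change of the 9 was 0.34, beside -0.01 for all genes.

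The Sprouty genes in Braf did not share a direction. Spry4 had 38.6, 21.3 and 45.4 CPM in Braf CKI libraries, against 7.69, 17.9 and 22.0 CPM in Braf vehicle libraries, with a log2 fold change of 1.15 ± 0.44 (adjusted p = 0.088). Spry1 had 30.1, 20.7 and 28.6 CPM in Braf CKI libraries, against 8.51, 19.2 and 18.2 CPM in Braf vehicle libraries (log2 fold change 0.79 ± 0.44, adjusted p = 0.25). Spry2 had 2.402, 4.97 and 6.41 CPM in Braf CKI libraries, against 7.79, 8.36 and 7.63 CPM in Braf vehicle libraries (log2 fold change -0.79 ± 0.37, adjusted p = 0.16). All CKI libraries were above vehicle for Spry1 and below it for Spry2, and 1 CKI library of Spry4 lay among the vehicle libraries. Spred2 had 22.2, 28.9 and 20.8 CPM in Braf CKI libraries, against 9.78, 19.4 and 19.4 CPM in Braf vehicle libraries (log2 fold change 0.56 ± 0.36, adjusted p = 0.32), again without overlap. Spred3 overlapped between the groups (0.34 ± 0.54, adjusted p = 0.73).

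The phosphatase genes overlapped between Braf CKI and Braf vehicle. Dusp6, the cytoplasmic ERK phosphatase, had 517, 453 and 425 CPM in Braf CKI libraries, against 251, 284 and 618 CPM in Braf vehicle libraries. Its log2 fold change was 0.28 ± 0.44 (adjusted p = 0.73), and the interval of 2 SE on either side ran from -0.61 to 1.16. The intervals were -0.87 to 1.96 for Dusp4 and -0.59 to 0.86 for Dusp5, so a fall of Dusp5 beyond 0.59 on the log2 scale lay outside that interval.

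Beside these genes, the other ERK targets did not move as a block in Braf. Of 12 listed, Etv4 and Etv1, ETS factors, fell and Phlda1 rose. Etv4 averaged 2.55 ± 0.529 CPM in Braf CKI and 29.8 ± 2.43 CPM in Braf vehicle libraries (log2 fold change -3.54 ± 0.64, adjusted p = 0.0022), and Phlda1 averaged 121 ± 39.6 CPM in Braf CKI and 27.1 ± 11.0 CPM in Braf vehicle libraries (log2 fold change 2.15 ± 0.50, adjusted p = 0.011). Of 13 immediate early genes, 5 rose (Jun, Ier2, Egr1, Jund and Junb) and 0 fell. Dusp1, a nuclear phosphatase of stress kinases and ERK, was the 1 gene called among 7 other Sprouty and dual-specificity phosphatase genes tested (log2 fold change 2.68 ± 0.72, adjusted p = 0.021). Among genes of the RAS-RAF-MEK-ERK core Map2k2 rose and Nras fell, and among 12 partners and adaptors Ptpn11 rose and Rasa1, a RAS GTPase-activating protein, fell. All 7 leukocyte markers fell in the same comparison, with a summed level of 166 to 305 CPM in Braf CKI and 929 to 1481 CPM in Braf vehicle libraries, and all 8 follicular markers, the endothelial marker Flt1 and the C cell marker Chgb rose. With leukocyte level as covariate, Spred1 had a log2 fold change of -1.26 and an adjusted p of 0.134. The mean log2 CPM of the leukocyte markers was 3.95 to 5.01 in Braf CKI and 6.81 to 7.48 in Braf vehicle libraries. Covariate and group can therefore hardly be told apart, and 97 of all genes were called under it, beside 2466 without it. This fit does not test the leukocytes' part.

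In Braf Arid1a KO thyroids Spred1 again fell under CKI, and no other member passed. Spred1 had 46.6, 45.9 and 32.6 CPM in Braf Arid1a KO CKI libraries, against 96.3, 67.6 and 79.4 CPM in Braf Arid1a KO vehicle libraries, without overlap (1.94-fold lower, log2 fold change -0.96 ± 0.24, adjusted p = 0.025). Of the 9 genes 1 was called lower and 0 higher, where 2% of all genes were called lower and 2.51% higher. Spry4 had 10.6, 12.5 and 20.4 CPM in Braf Arid1a KO CKI libraries, against 47.7, 39.2 and 29.0 CPM in Braf Arid1a KO vehicle libraries. No libraries overlapped, but its log2 fold change of -1.41 ± 0.44 missed the threshold (adjusted p = 0.069). DESeq2 called Spry4 (-1.41, adjusted p = 0.0198), where it called 10.2% of the genes it tested. Dusp6 had 228, 526 and 701 CPM in Braf Arid1a KO CKI libraries, against 1179, 986 and 667 CPM in Braf Arid1a KO vehicle libraries (log2 fold change -0.96 ± 0.45, adjusted p = 0.22). The remaining 6 genes had log2 fold changes of -0.92 to 0.20 with overlapping libraries, and the median of the 9 was -0.64, beside 0.03 for all genes.

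Of the 12 other ERK targets 5 fell in Braf Arid1a KO and 0 rose. They were Etv5 (8.44 ± 5.25 CPM in Braf Arid1a KO CKI and 75.4 ± 23.6 CPM in Braf Arid1a KO vehicle libraries, log2 fold change -3.16 ± 0.49, adjusted p = 0.001), Plaur, Ccnd1, Etv1 and Etv4. No gene was called among the immediate early genes, the core, the partners or the other Sprouty and phosphatase genes. Leukocyte markers had a summed level of 144 to 397 CPM in Braf Arid1a KO CKI and 471 to 1025 CPM in Braf Arid1a KO vehicle libraries, with 1 of 7 called lower, and 7 of 8 follicular markers and the endothelial marker Flt1 rose. The Spred1 call was lost without CKI replicate 5 (log2 fold change -0.81, adjusted p = 0.109), without vehicle replicate 1 (-0.80, 0.105) or without vehicle replicate 3 (-0.97, 0.0724). It was also lost with leukocyte level as covariate (-0.89, 0.15), with no filter on low counts (-0.94, 0.0579) and in a fit of only the groups compared (-0.93, 0.0701). Leukocyte level separated these groups too, so the loss under the covariate does not test the leukocytes' part.

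In Braf Arid2 KO thyroids, with 2 libraries a group, Spred2 fell under CKI and no other member passed. Spred2 had 11.3 and 9.15 CPM in Braf Arid2 KO CKI libraries, against 51.8 and 23.9 CPM in Braf Arid2 KO vehicle libraries (3.70-fold lower, log2 fold change -1.89 ± 0.46, adjusted p = 0.024). This was 1 of 9 genes called lower and 0 higher, where 1.96% of all genes were called lower and 1.41% higher. Dusp6 had 145 and 195 CPM in Braf Arid2 KO CKI libraries, against 755 and 590 CPM in Braf Arid2 KO vehicle libraries (log2 fold change -1.98 ± 0.56, adjusted p = 0.052). Dusp4 had 10.7 and 17.7 CPM in Braf Arid2 KO CKI libraries, against 86.2 and 52.7 CPM in Braf Arid2 KO vehicle libraries (log2 fold change -2.29 ± 0.91, adjusted p = 0.15). Neither gene's libraries overlapped. Spry4 had 8.62 and 14.3 CPM in Braf Arid2 KO CKI libraries, against 42.6 and 23.5 CPM in Braf Arid2 KO vehicle libraries (log2 fold change -1.53 ± 0.55, adjusted p = 0.12). Spred1 had 43.2 and 43.9 CPM in Braf Arid2 KO CKI libraries, against 73.4 and 101 CPM in Braf Arid2 KO vehicle libraries (log2 fold change -1.003 ± 0.29, adjusted p = 0.059). CKI libraries of both genes lay below vehicle, as did those of Spry1 (-0.88 ± 0.54, adjusted p = 0.36), while Spry2, Spred3 and Dusp5 overlapped. With 2 libraries a group such separation is frequent also without a difference. The median of the 9 was -1.12, beside -0.03 for all genes.

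No gene of the other ERK target, immediate early, core or other phosphatase lists was called in Braf Arid2 KO, and Rasa1 fell among the partners (log2 fold change -1.66 ± 0.29, adjusted p = 0.0036). Among the ERK targets Etv4 was at -2.46 ± 0.74 (adjusted p = 0.066), Etv5 at -1.68 ± 0.56 (adjusted p = 0.093) and Ccnd1 at -1.70 ± 0.59 (adjusted p = 0.10). Leukocyte markers had a summed level of 163 to 174 CPM in Braf Arid2 KO CKI and 536 to 574 CPM in Braf Arid2 KO vehicle libraries, with 0 of 7 called. Of 8 follicular markers 5 rose, with a summed level of 38840 to 64860 CPM in Braf Arid2 KO CKI and 783 to 998 CPM in Braf Arid2 KO vehicle libraries, and their part in the Spred2 result was not tested. Leaving out a library leaves 1 in its group, taken to vary like the others. The Spred2 call was then lost without CKI replicate 3 (-2.08, adjusted p = 0.194), CKI replicate 4 (-1.75, 0.186) or vehicle replicate 2 (-1.23, 0.323). Dusp6 passed the threshold with RLE size factors (adjusted p = 0.0462), with no filter (0.0395) and in a fit of only the groups compared (0.017). It also passed with leukocyte level as covariate (0.0321) and with DESeq2 (0.0068). Over all genes these settings called 3.41%, 2.22%, 10.8%, 3.71% and 10.7% in this order, beside 3.37% in the reported fit. Dusp6 did not pass with the replicate block or in the fits that left out a library. Spred1 (0.0108) and Spry4 (0.0445) passed with DESeq2, and Dusp4 (0.0205) in the fit of only the groups compared.

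In Braf Smarcb1 KO thyroids Spry4, Spred1 and Spred2 fell under CKI. Spry4 had 31.8, 21.6 and 48.1 CPM in Braf Smarcb1 KO CKI libraries, against 226, 184 and 113 CPM in Braf Smarcb1 KO vehicle libraries (5.14-fold lower, log2 fold change -2.36 ± 0.46, adjusted p = 0.0052). Spred2 had 9.68, 14.1 and 15.5 CPM in Braf Smarcb1 KO CKI libraries, against 28.7, 67.1 and 31.7 CPM in Braf Smarcb1 KO vehicle libraries (3.25-fold lower, log2 fold change -1.70 ± 0.37, adjusted p = 0.011). Spred1 had 37.4, 44.8 and 29.1 CPM in Braf Smarcb1 KO CKI libraries, against 77.9, 75.3 and 57.1 CPM in Braf Smarcb1 KO vehicle libraries (1.89-fold lower, log2 fold change -0.92 ± 0.24, adjusted p = 0.032). None of the 3 overlapped between the groups. They were 3 of 9 genes called lower, with 0 higher, where 2.05% of all genes were called lower and 1.8% higher. At an unadjusted p under 0.05 there were 7 of the 9, beside 3373 of all 19016 genes.

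The phosphatase genes lay lower in the same libraries without passing edgeR's test. Dusp6 had 150.4, 182 and 121 CPM in Braf Smarcb1 KO CKI libraries, against 442, 399 and 302 CPM in Braf Smarcb1 KO vehicle libraries (log2 fold change -1.33 ± 0.45, adjusted p = 0.10). Dusp5 had 6.74, 7.34 and 9.26 CPM in Braf Smarcb1 KO CKI libraries, against 20.0, 17.5 and 13.1 CPM in Braf Smarcb1 KO vehicle libraries (log2 fold change -1.11 ± 0.37, adjusted p = 0.093). Neither overlapped. Spred3 did not overlap either, at 4.62, 2.47 and 2.99 CPM in Braf Smarcb1 KO CKI libraries, against 10.5, 11.0 and 6.78 CPM in Braf Smarcb1 KO vehicle libraries (log2 fold change -1.49 ± 0.53, adjusted p = 0.12). Dusp4 was uneven, at 1.83, 4.14 and 1.20 CPM in Braf Smarcb1 KO CKI libraries, against 1.36, 10.3 and 15.8 CPM in Braf Smarcb1 KO vehicle libraries (log2 fold change -1.93 ± 0.74, adjusted p = 0.16). Spry1 (-0.66 ± 0.44) and Spry2 (-0.47 ± 0.36) overlapped, and the median of the 9 was -1.33, beside 0.03 for all genes. DESeq2 also called Dusp5 (-1.13, adjusted p = 0.0284), Dusp6 (-1.34, 0.0308) and Spred3 (-1.5, 0.0284), where it called 10.2% of the genes it tested.

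Of the 12 other ERK targets 4 fell in Braf Smarcb1 KO (Etv5, Etv4, Ccnd1 and Plaur) and 0 rose. Etv5 averaged 9.001 ± 2.62 CPM in Braf Smarcb1 KO CKI and 67.7 ± 37.9 CPM in Braf Smarcb1 KO vehicle libraries (log2 fold change -2.91 ± 0.48, adjusted p = 0.0017). Rasa1 fell by 1.87 ± 0.24 on the log2 scale (adjusted p = 0.00037), Nras fell, Gab1 rose, and 1 of 13 immediate early genes, Nr4a1, rose. Leukocyte markers had a summed level of 111 to 184 CPM in Braf Smarcb1 KO CKI and 127 to 433 CPM in Braf Smarcb1 KO vehicle libraries, with 0 of 7 called. Of 8 follicular markers 5 rose, with a summed level of 1624 to 2364 CPM in Braf Smarcb1 KO CKI and 158 to 227 CPM in Braf Smarcb1 KO vehicle libraries, and their part in the results was not tested. Spry4 stayed called without each library in turn, and missed in a fit of only the groups compared (adjusted p = 0.0719). Spred2 was lost in that fit (0.112), without CKI replicate 1 (-1.53, 0.0743) or without vehicle replicate 2 (-1.19, 0.0785). Spred1 was lost in that fit (0.162), with no filter (0.0899), and without CKI replicate 1 (-0.92, 0.104), CKI replicate 4 (-0.76, 0.137), vehicle replicate 1 (-0.82, 0.141) or vehicle replicate 2 (-0.85, 0.0878).

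**Figure D2:**
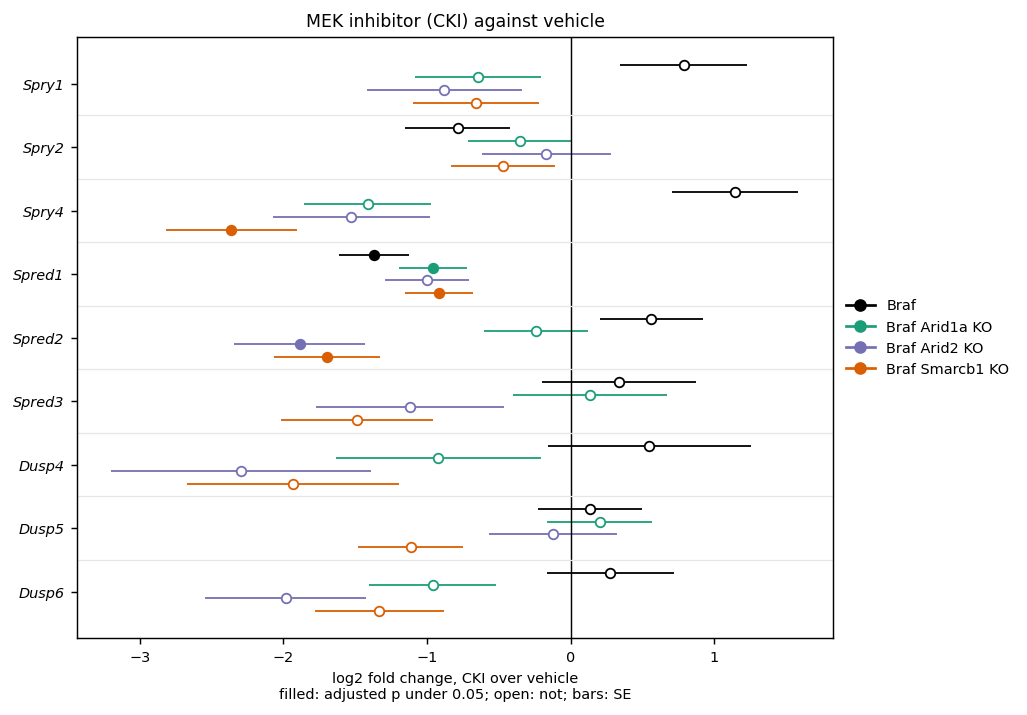
Log2 fold change of each gene under CKI over vehicle in the 4 Braf genotypes, with bars of 1 SE. Filled points passed an adjusted p of 0.05. Spred1 lies below 0 in all 4 genotypes, between -1.37 and -0.92, while Spry4 lies at 1.15 in Braf and between -2.36 and -1.41 in the knockouts.

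Whether the knockouts responded unlike Braf was tested as a difference of log2 fold changes, the response of the knockout minus that of Braf. The 3 differences share the Braf CKI and vehicle libraries, so they are given side by side and are not independent. Spry4, the Sprouty gene with the widest range, had a lower response in all 3 knockouts: the difference was -3.51 ± 0.63 in Braf Smarcb1 KO (adjusted p = 0.016), -2.67 ± 0.70 in Braf Arid2 KO (adjusted p = 0.023) and -2.56 ± 0.63 in Braf Arid1a KO, which missed the threshold (adjusted p = 0.21, unadjusted p = 0.00047). Spred2 differed by -2.45 ± 0.58 in Braf Arid2 KO (adjusted p = 0.017) and by -2.26 ± 0.51 in Braf Smarcb1 KO (adjusted p = 0.059). In Braf Arid1a KO the Spred2 difference was -0.80 ± 0.51 (adjusted p = 0.59). Dusp6 differed by -2.26 ± 0.71 in Braf Arid2 KO (adjusted p = 0.048), by -1.61 ± 0.63 in Braf Smarcb1 KO (adjusted p = 0.34) and by -1.24 ± 0.63 in Braf Arid1a KO (adjusted p = 0.49).

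Spred1, which was called lower in Braf itself, had small positive differences. They were 0.45 ± 0.34 in Braf Smarcb1 KO, 0.37 ± 0.37 in Braf Arid2 KO and 0.41 ± 0.34 in Braf Arid1a KO, and the intervals of 2 SE ran from -0.22 to 1.12, from -0.38 to 1.11 and from -0.26 to 1.08. The Spry2 differences of 0.32, 0.62 and 0.43 in the same order had intervals that held 0. Spry1 differed by -1.44 ± 0.62, -1.67 ± 0.70 and -1.43 ± 0.62 in the same order, with adjusted p of 0.38, 0.14 and 0.41. Dusp4 had the widest errors, with -2.48 ± 1.02, -2.84 ± 1.14 and -1.47 ± 1.005.

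Of the 9 genes 3 were called lower and 0 higher in Braf Arid2 KO, where 7.19% of all genes were called lower and 1.47% higher. In Braf Smarcb1 KO 1 was called lower and 0 higher, where 0.195% of all genes were called lower and 0.11% higher. In Braf Arid1a KO edgeR called none of the 9, with 0% of all genes called in either direction. At an unadjusted p under 0.05 there were 2 of the 9, beside 2018 of all 19016 genes. DESeq2 called 1, Spry4 (-2.50, adjusted p = 0.0182), where it called 1.15% of the genes it tested. At the same unadjusted threshold there were 5 of the 9 in Braf Arid2 KO, beside 4619 of all 19016 genes. In Braf Smarcb1 KO there were 7 of the 9, beside 2194. The medians of the 9 were -1.67 in Braf Arid2 KO, -1.61 in Braf Smarcb1 KO and -0.80 in Braf Arid1a KO, beside 0.00, 0.03 and 0.05 for all genes. In Braf Arid2 KO 3 of 13 immediate early genes (Ier2, Jun and Junb), the core genes Map2k1 and Map2k2, Ptpn11, Phlda1 and Dusp1 were also called lower, and Dusp10 higher. Of the cell markers, Flt1 was called lower in that difference and the follicular markers Slc5a5 and Tshr in that of Braf Smarcb1 KO. No gene of the pathway lists was called in the differences of Braf Smarcb1 KO and Braf Arid1a KO.

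Single libraries carried part of this. The Spry4 difference in Braf Smarcb1 KO was lost without CKI replicate 2 of that genotype (-3.26, adjusted p = 0.056), in a fit of only the groups compared (-3.56, 0.0996) and with leukocyte level as covariate (-3.07, 0.13). In Braf Arid2 KO the Spry4, Spred2 and Dusp6 calls were all lost without CKI replicate 3 (adjusted p = 0.18, 0.155 and 0.243), CKI replicate 4 (0.0643, 0.0704 and 0.0965) or vehicle replicate 2 (0.136, 0.121 and 0.18) of that genotype. Without Braf CKI replicate 1, Spry4 (0.0521) and Dusp6 (0.0999) were lost. The Dusp6 call was lost in 9 of 10 fits that left out a library, the exception being Braf vehicle replicate 5, and with the leukocyte covariate (-2.09, 0.0655). Without Braf Smarcb1 KO vehicle replicate 1 or replicate 3 the Spred2 difference in that genotype passed (-2.44, 0.0471, and -2.43, 0.0432), and without Braf Arid1a KO CKI replicate 5 the Spry4 difference there did (-2.89, 0.0412).

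**Figure D3:**
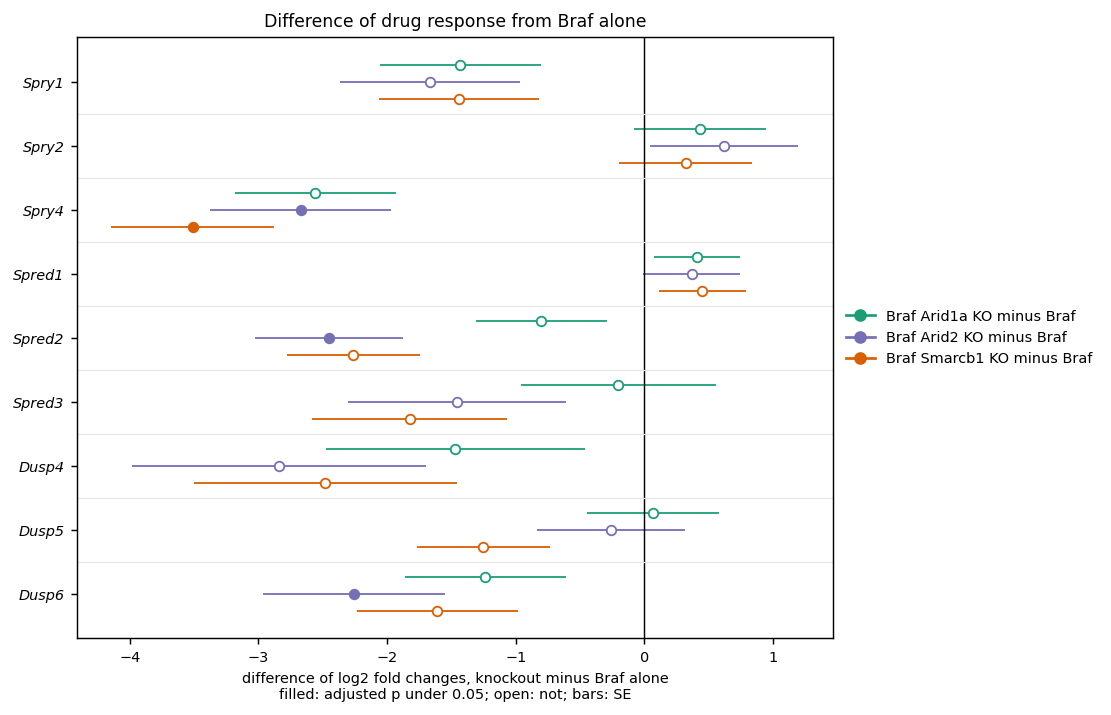
Difference between the log2 fold change under CKI in each knockout and in Braf, with bars of 1 SE. Filled points passed an adjusted p of 0.05. Spry4 lies between -3.51 and -2.56 in the 3 knockouts, and Spred1 between 0.37 and 0.45.

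Against wild type, Braf vehicle thyroids had more of both nuclear phosphatases, Spred1 and Spry2. Dusp4 had 13.8, 15.2 and 32.2 CPM in Braf vehicle libraries, against 0.524, 0.515 and 1.504 CPM in wild-type libraries (23.8-fold higher, log2 fold change 4.57 ± 0.84, adjusted p = 0.0005). Spred1 had 75.4, 108 and 76.9 CPM in Braf vehicle libraries, against 15.7, 17.0 and 15.7 CPM in wild-type libraries (5.38-fold higher, log2 fold change 2.43 ± 0.25, adjusted p = 9.8e-07). Dusp5 had 20.7, 23.5 and 20.6 CPM in Braf vehicle libraries, against 8.03, 3.53 and 7.55 CPM in wild-type libraries (3.39-fold higher, log2 fold change 1.76 ± 0.38, adjusted p = 0.0019). Spry2 had 7.79, 8.36 and 7.63 CPM in Braf vehicle libraries, against 3.80, 3.16 and 4.19 CPM in wild-type libraries (2.13-fold higher, log2 fold change 1.09 ± 0.37, adjusted p = 0.04). None of the 4 overlapped. These were 4 of 9 genes called higher and 0 lower, where 9.84% of all genes were called higher and 10.1% lower.

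The other 5 genes did not pass in Braf vehicle against wild type. Dusp6 had 251, 284 and 618 CPM in Braf vehicle libraries, against 123, 207 and 227 CPM in wild-type libraries, all higher (log2 fold change 1.05 ± 0.45, adjusted p = 0.10). Spry1 had 8.51, 19.2 and 18.2 CPM in Braf vehicle libraries, against 20.7, 25.8 and 42.9 CPM in wild-type libraries, all lower (log2 fold change -0.96 ± 0.44, adjusted p = 0.13). Spry4 (-0.42 ± 0.44), Spred2 (0.35 ± 0.36) and Spred3 (1.01 ± 0.55) overlapped. The median of the 9 was 1.05, beside -0.03 for all genes.

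Under CKI, Braf thyroids still had more Dusp4, Dusp5 and Spred1 than wild type, and Dusp6 also passed. Dusp4 had 28.9, 41.5 and 19.1 CPM in Braf CKI libraries, and the wild-type libraries are those above (34.8-fold higher, log2 fold change 5.12 ± 0.86, adjusted p = 0.00054). Dusp5 had 25.2, 24.8 and 21.3 CPM in Braf CKI libraries (log2 fold change 1.90 ± 0.38 over wild type, adjusted p = 0.002). Spred1 was 2.08-fold higher in Braf CKI than in wild type, with a log2 fold change of 1.06 ± 0.24 (adjusted p = 0.0049), and Dusp6 2.50-fold higher (log2 fold change 1.32 ± 0.45, adjusted p = 0.044). Spred2 (0.91 ± 0.36, adjusted p = 0.085) and Spred3 (1.35 ± 0.55, adjusted p = 0.096) lay above wild type in all libraries without passing, and Spry1, Spry2 and Spry4 overlapped. In all 4 of 9 genes were called higher and 0 lower, where 10.2% of all genes were called higher and 7.05% lower. This comparison shares the wild-type libraries with the vehicle comparison.

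Other genes of the pathway stood apart from wild type in the same samples. Of the 12 other ERK targets 8 were higher in Braf CKI (Etv1, Etv4, Ccnd1, Plaur, Areg, Lif, Phlda1 and Epha2) and 6 in Braf vehicle, all of these but Phlda1 and Epha2, and 0 were lower in either. Etv4 averaged 29.8 ± 2.43 CPM in Braf vehicle and 0.555 ± 0.728 CPM in wild-type libraries (log2 fold change 5.74 ± 0.72, adjusted p = 9.6e-06). Ccnd1, cyclin D, averaged 439 ± 294 CPM in Braf vehicle and 39.5 ± 8.07 CPM in wild-type libraries (log2 fold change 3.47 ± 0.52, adjusted p = 6.1e-05). In the core, Mapk3, which encodes an ERK kinase, and Nras were higher in Braf vehicle. Rasa1 and Nf1, the neurofibromin that Spred proteins recruit, were also higher in Braf vehicle, and Sos1, a RAS exchange factor, was lower in both.

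Markers of other cells differed as well. In Braf vehicle against wild type, 3 of 7 leukocyte markers (summed level 929 to 1481 CPM in Braf vehicle, 368 to 634 CPM in wild type) and 5 of 8 fibroblast markers (882 to 21600 CPM in Braf vehicle, 738 to 1432 CPM in wild type) were higher. Lower were 9 of 10 endothelial markers (33.3 to 701 CPM in Braf vehicle, 2090 to 3150 CPM in wild type), 6 of 6 parathyroid and C cell markers (27.4 to 159 CPM in Braf vehicle, 13210 to 34250 CPM in wild type) and 7 of 8 follicular markers. In Braf CKI against wild type, 2 of 8 fibroblast markers (1436 to 7139 CPM in Braf CKI) and the follicular marker Nkx2-1 were higher. Lower were 5 of 10 endothelial markers (182 to 735 CPM in Braf CKI), 6 of 6 parathyroid and C cell markers (91.2 to 144 CPM in Braf CKI) and the follicular markers Tg and Dio1, and 0 of 7 leukocyte markers were called. Their part in the differences of the feedback genes was not tested. Leukocyte level was fitted as a covariate, but it separated both Braf groups from wild type. A call lost under it therefore does not test the leukocytes' part. With leukocyte level as covariate Dusp4, Dusp5 and Spred1 stayed called in both comparisons, while Spry2 in Braf vehicle (1.12, adjusted p = 0.0938) and Dusp6 in Braf CKI (1.02, adjusted p = 0.158) did not. Spry2 was lost without any 1 of the 6 libraries (adjusted p = 0.0583 to 0.129), as was Dusp6 (0.0658 to 0.171).

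Untreated Arid1a KO thyroids, which lack the Braf mutation, differed from wild type in 2 of the 9 genes, in opposite directions. Spred1 had 49.4, 28.2 and 40.2 CPM in Arid1a KO libraries, against 15.7, 17.0 and 15.7 CPM in wild-type libraries (2.43-fold higher, log2 fold change 1.28 ± 0.24, adjusted p = 0.0024). Dusp6 had 38.4, 97.6 and 22.1 CPM in Arid1a KO libraries, against 123, 207 and 227 CPM in wild-type libraries (3.52-fold lower, log2 fold change -1.82 ± 0.46, adjusted p = 0.0087). Neither overlapped. Of the 9 genes 1 was called higher and 1 lower, near the shares over all genes, of which 6.84% were called higher and 11.8% lower. Dusp4 had 0.300, 0.343 and 0.502 CPM in Arid1a KO libraries, 8 to 12 counts each, all below wild type, with a log2 fold change of -1.16 ± 0.83 (adjusted p = 0.36). The remaining 6 genes overlapped, with log2 fold changes of -0.53 to 0.69, and the median of the 9 was 0.09, beside -0.01 for all genes.

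In the same comparison 1 of 12 other ERK targets, Etv1, was higher and 2, Fosl1 and Hbegf, were lower, and 3 of 13 immediate early genes (Junb, Ier2 and Atf3) were lower. All 7 leukocyte markers (2468 to 4357 CPM in Arid1a KO, 368 to 634 CPM in wild type) and 5 of 8 fibroblast markers (9893 to 13340 CPM in Arid1a KO, 738 to 1432 CPM in wild type) were higher, as was Lpl among 7 muscle and adipocyte markers. Lower were 3 of 6 parathyroid and C cell markers (4848 to 13010 CPM in Arid1a KO, 13210 to 34250 CPM in wild type), the follicular marker Pax8 and the endothelial marker Cldn5. With leukocyte level as covariate, both genes missed the threshold, Spred1 with a log2 fold change of 1.17 (adjusted p = 0.242) and Dusp6 with -1.08 (adjusted p = 0.472). The mean log2 CPM of the leukocyte markers, 8.14 to 8.93 in Arid1a KO and 5.03 to 6.24 in wild type, separated the groups. Under the covariate 16 of all genes were called, beside 3538 without it, so these losses do not test the leukocytes' part. Dusp6 was also lost without Arid1a KO replicate 1 (-1.59, adjusted p = 0.0591) or replicate 3 (-1.42, adjusted p = 0.0673) and in a fit of only the groups compared (-1.71, adjusted p = 0.0555).

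**Figure D4:**
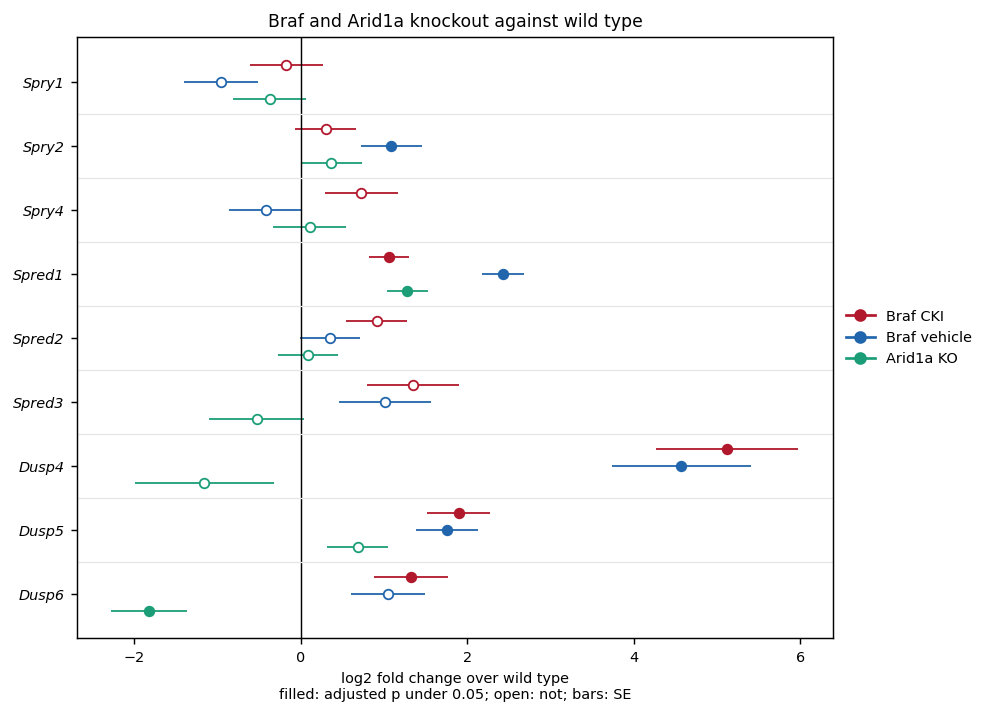
Log2 fold change of each gene over wild type in Braf CKI, Braf vehicle and untreated Arid1a KO, with bars of 1 SE. Filled points passed an adjusted p of 0.05. Dusp4 lies at 5.12 in Braf CKI and 4.57 in Braf vehicle, and Spred1 is above wild type in all 3 groups.

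Each knockout was then set against Braf under vehicle. With loss of Smarcb1, 4 of 9 genes rose and 0 fell, where 14.4% of all genes were called higher and 14.2% lower. Spry4 was the most changed, at 226, 184 and 113 CPM in Braf Smarcb1 KO vehicle libraries, against 7.69, 17.9 and 22.0 CPM in Braf vehicle libraries (11.0-fold higher, log2 fold change 3.46 ± 0.48, adjusted p = 3.4e-05). Spred3 had 10.5, 11.0 and 6.78 CPM in Braf Smarcb1 KO vehicle libraries, against 0.611, 1.19 and 1.57 CPM in Braf vehicle libraries (8.31-fold higher, log2 fold change 3.06 ± 0.57, adjusted p = 0.00051). Spry1 had 67.9, 44.3 and 74.4 CPM in Braf Smarcb1 KO vehicle libraries, against 8.51, 19.2 and 18.2 CPM in Braf vehicle libraries (4.06-fold higher, log2 fold change 2.02 ± 0.45, adjusted p = 0.0024). Spred2 had 28.7, 67.1 and 31.7 CPM in Braf Smarcb1 KO vehicle libraries, against 9.78, 19.4 and 19.4 CPM in Braf vehicle libraries (2.62-fold higher, log2 fold change 1.39 ± 0.37, adjusted p = 0.007). None of the 4 overlapped.

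None of the 3 phosphatase genes passed. Dusp6 had 442, 399 and 302 CPM in Braf Smarcb1 KO vehicle libraries, against 251, 284 and 618 CPM in Braf vehicle libraries, with a log2 fold change of -0.01 ± 0.44 (adjusted p = 0.99) and an interval of 2 SE from -0.89 to 0.87. Dusp5 (-0.36 ± 0.36, adjusted p = 0.49) and Dusp4 (-1.16 ± 0.72, adjusted p = 0.23) also missed, as did Spred1 (-0.31 ± 0.24, adjusted p = 0.35) and Spry2 (0.39 ± 0.36, adjusted p = 0.45). The median of the 9 was 0.39, beside 0.03 for all genes. In the same comparison Ccnd1 and Epha2 rose and Epha4 and Etv1 fell among 12 other ERK targets, and 4 of 12 partners rose (Cav1, Rasa1, Ptpn11 and Nf1). Dusp9, a relative of Dusp6, rose among the other phosphatases. Mapk3 fell by 1.67 ± 0.22 on the log2 scale (adjusted p = 1.8e-05). Leukocyte markers (127 to 433 CPM in Braf Smarcb1 KO vehicle, 929 to 1481 CPM in Braf vehicle, 5 of 7 lower) and 6 of 10 endothelial, 4 of 8 fibroblast and 5 of 8 follicular markers and Lpl fell, while Cldn5, Slc5a5 and Scg2, a marker from each of the endothelial, follicular and C cell lists, rose. With leukocyte level as covariate Spry4 and Spred3 stayed called, and Spry1 (1.55, adjusted p = 0.0747) and Spred2 (0.92, adjusted p = 0.218) did not. Leukocyte level separated these groups too, so a lost call does not test the leukocytes' part. Spred2 was also lost without Braf Smarcb1 KO vehicle replicate 2 (0.90, adjusted p = 0.0803) and in a fit of only the groups compared (1.41, adjusted p = 0.0775).

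With loss of Arid1a, Spry1 rose under vehicle. Spry1 had 67.9, 90.4 and 49.7 CPM in Braf Arid1a KO vehicle libraries, against 8.51, 19.2 and 18.2 CPM in Braf vehicle libraries (4.52-fold higher, log2 fold change 2.18 ± 0.46, adjusted p = 0.0048), without overlap and under every alternative run. This was 1 of 9 genes called higher and 0 lower, where 4.25% of all genes were called higher and 5.31% lower. Dusp6 had 1179, 986 and 667 CPM in Braf Arid1a KO vehicle libraries, above all Braf vehicle libraries (log2 fold change 1.30 ± 0.45, adjusted p = 0.07). Spry4 was likewise above in all libraries (log2 fold change 1.28 ± 0.44, adjusted p = 0.07), and Dusp5 below in all, at 10.1, 10.1 and 10.2 CPM in Braf Arid1a KO vehicle libraries (log2 fold change -1.09 ± 0.37, adjusted p = 0.063). Without Braf vehicle replicate 5, Dusp6 passed (1.77, adjusted p = 0.0334). DESeq2 also called Dusp6, Spry4 and Dusp5, where it called 15.4% of the genes it tested. Leukocyte markers ran from 471 to 1025 CPM in Braf Arid1a KO vehicle and 929 to 1481 CPM in Braf vehicle libraries (0 of 7 called), 7 of 8 fibroblast markers, 5 of 10 endothelial markers and Scg2 fell, 2 of 8 follicular markers rose, and their part in the Spry1 result was not tested beyond the leukocyte covariate. Among the other lists, Mapk3, Cav1, Plaur and Dusp10 fell and Egr2 rose.

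With loss of Arid2, edgeR called none of the 9 under vehicle, where 2.33% of all genes were called higher and 1.28% lower. Of the 9, 4 had an unadjusted p under 0.05, as did 4185 of all 19016 genes. DESeq2 called 1, Spred2 (1.17, adjusted p = 0.0359), where it called 13% of the genes it tested. Spred2 had 51.8 and 23.9 CPM in Braf Arid2 KO vehicle libraries, both above Braf vehicle (log2 fold change 1.22 ± 0.40, adjusted p = 0.077). Dusp4 had 86.2 and 52.7 CPM in Braf Arid2 KO vehicle libraries, also above (log2 fold change 1.77 ± 0.78, adjusted p = 0.18), as were Spry1 (0.997 ± 0.48, adjusted p = 0.23) and Spry4 (1.06 ± 0.48, adjusted p = 0.20). Spred3 differed widely between the libraries, at 5.18 and 0.886 CPM. The median of the 9 was 0.997, beside -0.04 for all genes, and for Arid1a loss 0.11, beside 0. Ptpn11 and Phlda1 rose and Cav1 fell in the other lists, and 2 of 8 fibroblast markers, Dcn and Lum, fell.

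**Figure D5:**
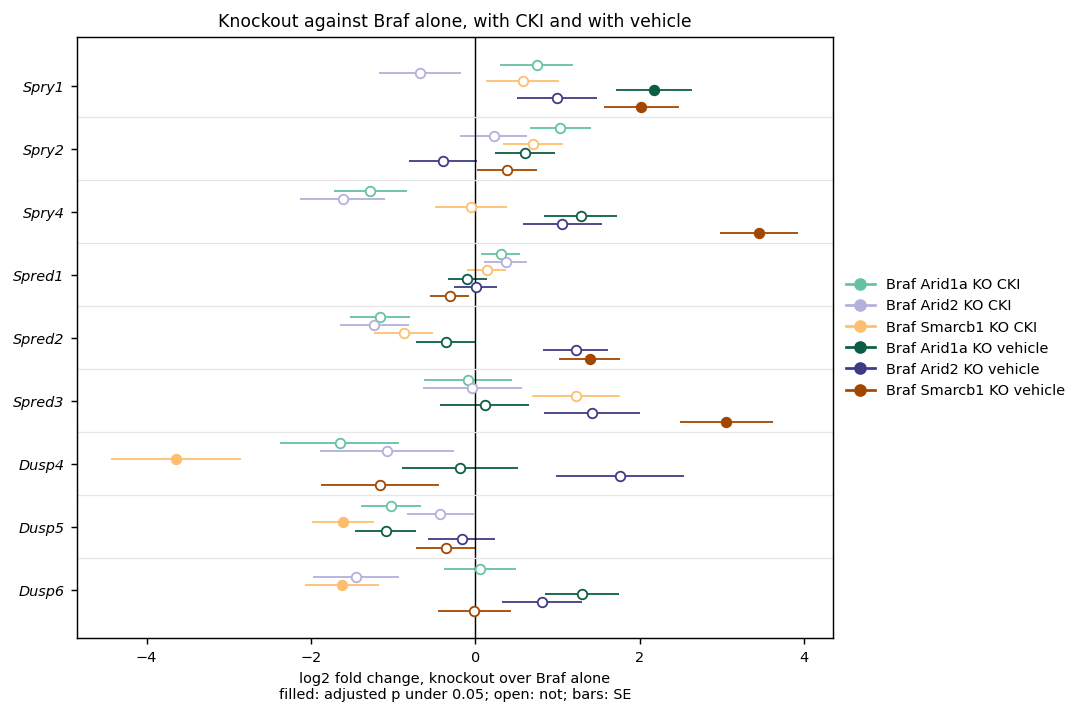
Log2 fold change of each gene in the knockouts over Braf, under CKI and under vehicle, with bars of 1 SE. Filled points passed an adjusted p of 0.05. In the Smarcb1 knockout Spry4 lies at -0.05 under CKI and at 3.46 under vehicle, and Dusp6 at -1.62 under CKI and at -0.01 under vehicle.

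Under CKI the pattern of the Smarcb1 knockout against Braf was another: all 3 phosphatase genes were lower and no Sprouty or Spred gene was called. Dusp4 had 1.83, 4.14 and 1.20 CPM in Braf Smarcb1 KO CKI libraries, against 28.9, 41.5 and 19.1 CPM in Braf CKI libraries (12.5-fold lower, log2 fold change -3.64 ± 0.79, adjusted p = 0.0028). Dusp5 had 6.74, 7.34 and 9.26 CPM in Braf Smarcb1 KO CKI libraries, against 25.2, 24.8 and 21.3 CPM in Braf CKI libraries (3.05-fold lower, log2 fold change -1.61 ± 0.37, adjusted p = 0.0047). Dusp6 had 150.4, 182 and 121 CPM in Braf Smarcb1 KO CKI libraries, against 517, 453 and 425 CPM in Braf CKI libraries (3.08-fold lower, log2 fold change -1.62 ± 0.45, adjusted p = 0.016). None of the 3 overlapped. They were 3 of 9 called lower and 0 higher, where 9.19% of all genes were called lower and 7.87% higher. Spry4 had a log2 fold change of -0.05 ± 0.43, and Spred2, lower in all libraries, one of -0.87 ± 0.36 (adjusted p = 0.10). Spred3 and Spry2 were higher in all libraries without passing (1.23 ± 0.53, adjusted p = 0.12, and 0.70 ± 0.37, adjusted p = 0.20). The median of the 9 was -0.05, beside 0.03 for all genes.

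Other phosphatases moved with them: of 7 tested, Dusp2 and Dusp7 were lower and none higher. Dusp2 averaged 6.91 ± 4.44 CPM in Braf Smarcb1 KO CKI and 58.1 ± 4.93 CPM in Braf CKI libraries (log2 fold change -3.07 ± 0.77, adjusted p = 0.0078). Of the 12 other ERK targets 4 were lower (Epha4, Etv1, Fosl1 and Areg) and 0 higher. Among leukocyte markers 1 of 7 was lower (111 to 184 CPM in Braf Smarcb1 KO CKI, 166 to 305 CPM in Braf CKI), 8 of 10 endothelial markers were lower (92.3 to 101 CPM in Braf Smarcb1 KO CKI, 182 to 735 CPM in Braf CKI), and 7 of 8 follicular markers were lower (1624 to 2364 CPM in Braf Smarcb1 KO CKI, 8956 to 22070 CPM in Braf CKI). Lpl and Gcm2 were also lower, and Pdgfra, a fibroblast marker, and Scg2 were higher. Dusp4 and Dusp5 stayed called in all alternatives run. Dusp6 was lost without Braf Smarcb1 KO CKI replicate 1 (-1.63, adjusted p = 0.0535) or replicate 4 (-1.49, adjusted p = 0.0727).

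For the Arid1a and Arid2 knockouts edgeR called none of the 9 against Braf under CKI. Called over all genes were 1.03% higher and 1.28% lower for Arid1a loss, and 0.352% higher and 0.915% lower for Arid2 loss. At an unadjusted p under 0.05 there were 5 and 3 of the 9, beside 2962 and 4216 of all 19016 genes. DESeq2 called 2 (Spred2 and Spry2) and 3 (Spry4, Spred2 and Dusp6). Of the genes it tested it called 5.84% and 11.5% in the same order. Spry4 lay below Braf CKI in all libraries of both knockouts, with log2 fold changes of -1.28 ± 0.44 (adjusted p = 0.14) for Arid1a and -1.61 ± 0.52 (adjusted p = 0.097) for Arid2 loss. Spred2 did so too, with -1.16 ± 0.36 (adjusted p = 0.099) and -1.23 ± 0.42 (adjusted p = 0.11). Dusp6 was unlike in the 2 knockouts, at 0.06 ± 0.44 for Arid1a and, lower in both libraries, -1.45 ± 0.52 (adjusted p = 0.12) for Arid2 loss. Braf Arid1a KO CKI replicate 5 stood apart for Dusp4, with 22.3 CPM against 2.98 and 3.22 CPM in the other libraries. Without it Dusp4 (-3.27, adjusted p = 0.0237), Dusp5 (-1.48, 0.0437) and Spred2 (-1.55, 0.0392) passed against Braf CKI. The medians of the 9 were -0.09 for Arid1a loss and -0.67 for Arid2 loss, beside 0.01 and -0.08 for all genes. Of the cell markers Flt1 was lower for Arid1a loss.

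Across the 28 libraries the 9 genes were not a block. Pearson correlations of log2 CPM were highest for Dusp4 with Dusp6 (0.763), Spry4 with Spred2 (0.706), Spry4 with Spred3 (0.701), Spry1 with Spry4 (0.695) and Dusp4 with Dusp5 (0.677). The points share libraries, depth and group differences in cell makeup, so these values are descriptions. Outside the 9, the genes most like each by the same measure were Ocrl (0.757) and Osbpl6 (0.74) for Spry1, Gcnt3 (0.789) and Rpl3 (0.78) for Spry2, and E2f7 (0.825) and Pdss1 (0.811) for Spry4. For Spred1 they were Etv4 (0.89) and Shmt1 (0.89), for Spred2 Arhgef2 (0.781) and Capn2 (0.753), and for Spred3 Rin1 (0.90). For Dusp4 they were Fam100b (0.929) and Ramp1 (0.908), for Dusp5 Has2 (0.772) and Anxa8 (0.768), and for Dusp6 Slc9a3r1 (0.905) and Blcap (0.886).

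The count table may merge strands, since the labels do not state whether the library kit kept them. By the GENCODE annotation of GRCm38, exons of Spry1 overlap a predicted transcript on the other strand, those of Spred3 overlap Ggn and those of Dusp5 an antisense transcript, so reads of these partners cannot be told apart from theirs. The other 6 genes had no overlapping exon of another gene.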

How the data were processed

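The deposited table holds raw read counts per gene, which the authors made before deposit; the submitters' processing notes name STAR 2.4, HTSeq 0.6.1, DESeq2 and the build mm9, without role or order. It covers 28 of the 30 labelled samples, and the other 2 (Braf Arid2 KO vehicle replicate 1 and CKI replicate 2) were not analysed here. Library totals ran from 23879271 to 34400066 counts. Genes kept by edgeR's filterByExpr were scaled by TMM and fitted in edgeR 4.0.16 (R 4.3.3, limma 3.58.1) with its quasi-likelihood test, with 1 term per group over all 28 libraries, 13 pairwise comparisons and 3 differences of drug response. Benjamini-Hochberg adjustment ran over all genes tested, and the threshold was 0.05. The SE is the absolute log2 fold change divided by the square root of F. Log2 CPM for correlations used a prior count of 2. The fit was tested on simulated data. No replicate pair agreed within sampling noise, with a chi-square of 77 to 359 times its degrees of freedom.

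The members and gene lists were chosen with earlier results of these data known. Named are all 9 members, the 2 genes most correlated with each (leaving out predicted, immunoglobulin, T cell receptor and pseudogene names), the called genes of the pathway lists and Smarcb1, Arid1a and Arid2 as label checks. Further list genes that were called, or that stood near the threshold in Braf Arid2 KO, were named after their values were seen. Alternatives were DESeq2 1.42.0, RLE size factors, no filter on low counts, a fit of only the groups compared, leukocyte marker level as covariate, a replicate block and the removal of each library. Where leukocyte level separates the groups compared, covariate and group can hardly be told apart, and a call lost under it does not test the leukocytes' part. Annotation was GENCODE on GRCm38, matched by gene name only, since the counts are on mm9. Some genes that these rules name are not reported here.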

Additional observations from a re-analysis of the deposited data

Results flagged for a closer look

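In 4 results the response of a knockout to CKI differed from that of Braf by the test of the difference itself, on the log2 scale. Spry4 differed by -3.51 in Braf Smarcb1 KO and by -2.67 in Braf Arid2 KO. Spred2 differed by -2.45 and Dusp6 by -2.26 in Braf Arid2 KO. The Braf libraries are common to all 4, and the libraries without which each call was lost are named with the results.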

How the results depend on the processing

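Of 144 results (9 genes in 16 comparisons) 28 were called, and 11 of these stayed called under every alternative. Over all alternatives the called results gave 352 values, of which 279 kept the call, 73 lost it and 0 reversed. The results not called gave 1484 values, of which 40 were called and 57 changed sign without a call. The cause of these changes was not tested. Listed next are counts of called genes among the 9 that moved by more than 1.5 times, or to or from 0, with the reported count first. Smaller moves are left out. Among them are the losses of Spry2 in Braf vehicle and of Dusp6 in Braf CKI against wild type, given with those results. Under CKI, Braf had 1, and 0 with the leukocyte covariate. Braf Arid1a KO had 1, against 2 with DESeq2 and 0 with the leukocyte covariate, with no filter, in a fit of only the groups compared and with the replicate block, and 0 to 1 without 1 library. Braf Arid2 KO had 1, against 4 with DESeq2, 3 in a fit of only the groups compared, 2 with the leukocyte covariate, no filter or RLE size factors and 0 with the replicate block, and 0 to 1 without 1 library. Braf Smarcb1 KO had 3, against 6 with DESeq2 and 0 in a fit of only the groups compared, and 1 to 3 without 1 library. Over all genes Braf had 13% called, and 0.51% with the leukocyte covariate. Braf Arid1a KO had 4.51%, and 10.2%, 1.41%, 2.58%, 3.4% and 0.931% in the order of settings given for it. Braf Arid2 KO had 3.37%, and 10.7%, 10.8%, 3.71%, 2.22%, 3.41% and 2.65% in its order. Braf Smarcb1 KO had 3.85%, and 10.2% and 0.0123% in its order. Over wild type, Arid1a KO had 2, against 0 with the leukocyte covariate and 1 in a fit of only the groups compared, and 1 to 3 without 1 library. The shares of all genes called there were 18.6% in the reported fit, and 0.0841% and 14.6% under these settings in this order. Under vehicle against Braf, Braf Arid1a KO had 1, against 4 with DESeq2, 2 with the leukocyte covariate, 2 in a fit of only the groups compared and 3 with the replicate block, and 1 to 2 without 1 library. The shares of all genes called there were 9.56% in the reported fit, and 15.4%, 7.44%, 5.36% and 5.76% under these settings in this order. Braf Arid2 KO had 0, against 1 with DESeq2, and Braf Smarcb1 KO had 4, against 2 with the leukocyte covariate. Over all genes the shares were 3.61% and 13% for Braf Arid2 KO, and 28.6% and 10.4% for Braf Smarcb1 KO. Under CKI against Braf CKI, Braf Arid1a KO had 0, against 2 with DESeq2, and 0 to 3 without 1 library, and Braf Arid2 KO had 0, against 3 with DESeq2 and 2 in a fit of only the groups compared. Over all genes the shares were 2.3% and, with DESeq2, 5.84% for Braf Arid1a KO. For Braf Arid2 KO they were 1.27%, and 11.5% and 7.65% in the order of its settings. Of the differences of response, Braf Arid1a KO had 0, against 1 with DESeq2, and 0 to 1 without 1 library. Braf Arid2 KO had 3, and 0 to 3 without 1 library. Braf Smarcb1 KO had 1, against 2 with DESeq2 and 0 with the leukocyte covariate or in a fit of only the groups compared, and 0 to 2 without 1 library. The shares of all genes called in this difference were 0.305% in the reported fit, and 1.56%, 0.0526% and 0.0292% under these settings in this order. The block used replicate numbers from the titles. Deviations of same-numbered libraries from their group means had correlations of -0.38 to 0.151. With 1 to 3 shared numbers a comparison, these values cannot settle whether the numbers pair the samples. Over all genes the counts called moved by more than 1.5 times: under CKI against vehicle 2466 in Braf (97 with the leukocyte covariate, 3916 with DESeq2), 858 in Braf Arid1a KO (177 with the replicate block, 1843 with DESeq2), 640 in Braf Arid2 KO (65 without CKI replicate 3, 1810 with DESeq2) and 732 in Braf Smarcb1 KO (2 in a fit of only the groups compared, 1613 with DESeq2). Against wild type they were 3795 in Braf vehicle (2359 without wild type replicate 2), 3277 in Braf CKI (1734 without its replicate 4) and 3538 in Arid1a KO (16 with the leukocyte covariate). Under vehicle against Braf they were 1818 for Arid1a loss (737 without its replicate 1, 2870 with DESeq2), 686 for Arid2 loss (1 in a fit of only the groups compared, 2126 with DESeq2) and 5433 for Smarcb1 loss (1982 with the leukocyte covariate). Under CKI against Braf they were 438 for Arid1a loss (138 in a fit of only the groups compared, 1119 with DESeq2), 241 for Arid2 loss (14 without CKI replicate 3, 1950 with DESeq2) and 3243 for Smarcb1 loss (1996 without CKI replicate 4). For the differences they were 0 for Arid1a (275 without CKI replicate 5), 1647 for Arid2 (0 without CKI replicate 3, 2908 with DESeq2) and 58 for Smarcb1 (5 in a fit of only the groups compared, 264 with DESeq2). Dusp4 in wild type rests on 14 to 47 counts a library, and the 2 groups of 2 libraries limit every Arid2 result.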
